A study of Homo sapiens with 12 samples.

Results

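The RNA of SHI-1 cells that received disulfiram (DSF), copper (Cu) and niclosamide (NSM) together was compared with that of SHI-1 cells that received only DSF and Cu, to ask what NSM added in cells already exposed to the first drug. The comparison used 6 of the 12 libraries analysed, 3 labelled DSF+NSM and 3 labelled DSF, and covered all genes, of which 13502 of the 14866 listed had at least 10 normalized counts in at least 3 of the 12 libraries and were tested. SHI-1 is an established acute myeloid leukaemia line that carries an MLL-AF6 fusion gene. DSF libraries came from cells given 0.3 µM DSF and 1 µM Cu, and DSF+NSM libraries from cells given the same doses plus 5 µM NSM, each for 16 h. The other 6 libraries, from cells given DMSO or 5 µM NSM without DSF for 16 h, served to test for which genes DSF and Cu altered the change that NSM brought. Whether the DMSO and NSM cells also received Cu is not given in the sources used here. All results come from this single line, and the replicates were independent experiments according to the study.

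DSF is a dithiocarbamate drug used against alcohol dependence, which blocks aldehyde dehydrogenase and, as a breakdown product, binds copper and carries it into cells. NSM is a salicylanilide drug against tapeworms, known to carry protons across the inner mitochondrial membrane and so to uncouple respiration. Cells answer misfolded protein through HSF1, which switches on chaperone genes, and excess zinc or copper through MTF1, which switches on metallothioneins. Oxidants and electrophiles act through NRF2, a shortage of membrane cholesterol through SREBP2, and amino acid shortage or other stress through phosphorylation of eIF2α and the factor ATF4. MLL-fusion proteins keep HOXA genes, MEIS1 and other genes of immature blood cells active, and the study asked whether NSM adds to the loss of these proteins that DSF brings.

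The DSF+NSM libraries were larger than the DSF libraries after the authors' normalization. The normalized counts summed to 14.9 to 15.3 M in DSF and 22.7 to 25.6 M in DSF+NSM libraries. The smallest value shared by many genes, the step, was 0.995 to 1.16 normalized counts in DSF and 1.54 to 2.22 in DSF+NSM libraries. Taken as 1 read, it gives an estimated 12.9 to 15.4 M and 10.2 to 16.3 M reads. Between 32.2% and 32.9% of the nonzero values per library were whole multiples of the step, so these read numbers are approximate. Much of the difference lay in a few gene groups. The 28 genes of the heat shock list took 1.69% ± 0.309 (SD, n = 3) of the sum in DSF and 13.0% ± 1.92 in DSF+NSM libraries, the 21 nuclear rRNA genes 4.23% ± 0.661 and 7.30% ± 0.841, the mitochondrial rRNA genes RNR1 and RNR2 0.938% ± 0.0731 and 3.61% ± 0.457, and 7 metallothionein genes 0.494% ± 0.0803 and 1.61% ± 0.0766. In mean sums, the heat shock list went from 0.257 to 3.20 M and the 79 cytosolic ribosomal protein genes from 2.01 to 3.66 M, the latter with shares of 13.2% and 14.9%. The 14725 genes outside the groups drawn in the plot of library composition summed on average to 11.8 M in DSF and 13.7 M in DSF+NSM libraries. rRNA should be scarce after the poly(A) selection the study used.

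**Figure D1:**
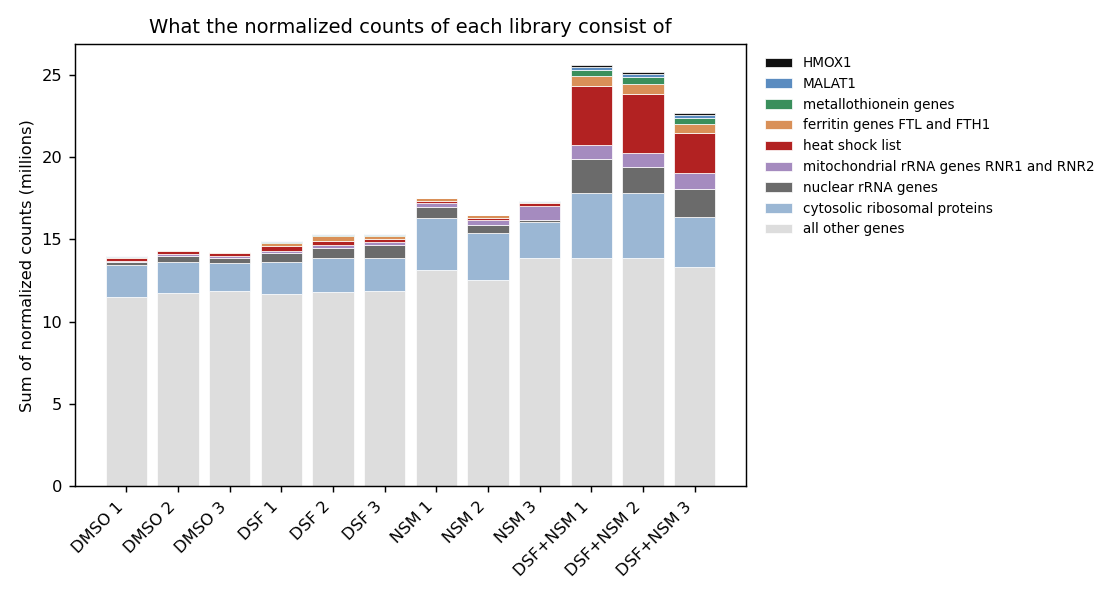
Sums of normalized counts (M, y axis) of the 12 libraries, stacked by gene group. The DSF+NSM bars reach 22.7 to 25.6 M against 14.9 to 15.3 M for DSF, and the heat shock list is the added segment that is most visible.

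With NSM, about as many genes rose as fell. limma on log2(normalized count + 1) called 2928 genes higher (21.7% of those tested) and 2890 lower (21.4%) at a Benjamini-Hochberg adjusted p under 0.05, together 43.1%. Of these, 1515 genes (11.2%) rose and 1267 (9.38%) fell by more than 1 on the log2 scale, which understates the change of genes with few counts. The values of the 6 libraries did not overlap between the groups for 8424 genes (62.4%). Differences below are means on the log2 scale ± SE with n = 3 libraries a group. These shares of all genes are the background against which the gene groups below can be read. The balance rests on the authors' scaling: when all libraries were set to the same sum, the median difference of all genes moved from 0.01 to -0.68, and 976 genes (7.22%) were called higher and 7277 (53.8%) lower. With rRNA left out of those sums, 1116 were higher and 6661 lower. Differences below are on the authors' scale. The calls under equal sums stand beside each list for DSF+NSM against DSF, and the difference beside each gene whose call or sign they change. NSM replicate 3 also bears on the counts through the shared estimate of spread, since without it 4038 genes were called higher and 4070 lower.

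**Figure D2:**
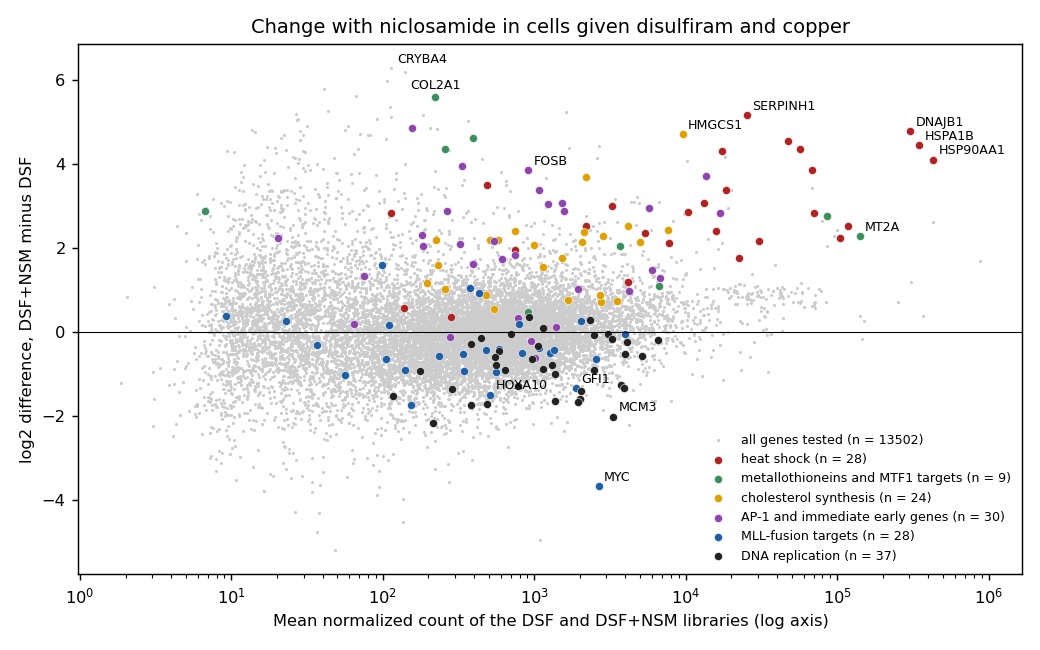
Each point is 1 of 13502 genes, with its mean normalized count over the 6 libraries (x axis, log scale) against its log2 difference, DSF+NSM minus DSF (y axis). Heat shock genes combine large rises with very high counts, HSP90AA1 with a difference of 4.09, while the DNA replication genes lie mostly below 0.

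The 6 libraries were checked for the identity of the cells. All 12 markers of monocytic and myeloid blasts, among them CD33, SPI1 and LYZ, were above 10 normalized counts in at least 1 library of either group, and their sum was 37063 to 39356 in DSF and 30902 to 35327 in DSF+NSM libraries. Of 10 erythroid markers only EPOR was in the files. Of 10 T and NK cell markers 5 were in the files, with sums of 1769 to 1964 in DSF and 1649 to 2068 in DSF+NSM libraries, and the few listed markers of megakaryocytes, fibroblasts and epithelial cells summed to no more than 212 in any of the 6 libraries. The 8 B cell markers summed to 75.4 to 79.6 in DSF libraries and 35.7 to 795 in DSF+NSM libraries. The high sum came from DSF+NSM replicate 1, in which PAX5, a B cell transcription factor, stood at 471 normalized counts against 15.5 and 6.70 in the other DSF+NSM libraries, and among the other groups it was high in NSM replicate 2 (161), a gene chosen here after its values were seen. Without DSF+NSM replicate 1, 2306 genes were called higher and 2482 lower, and of 134 genes named below that passed the filter 5 lost their call, as given with each of them.

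Heat shock genes showed the largest rise in RNA. Of the 28 listed genes, all tested, 25 rose and 0 fell, with a median difference of 2.83, and the same count rose under equal sums (median 2.15). HSPA1B and HSPA1A encode the inducible HSP70 chaperone. The DSF libraries held 35831, 42318 and 16974 normalized counts of HSPA1B and the DSF+NSM libraries 753236, 794172 and 442073, a 20.9-fold higher mean (log2 difference 4.44 ± 0.30, adjusted p = 8.20e-07). Every DSF+NSM library lay above every DSF library, and DSF replicate 3 was the lowest of its group. HSPA1A, whose sequence is nearly identical so that reads may be shared, rose 22.1-fold, from 4939, 5500.0 and 1801 to 108680.5, 109561 and 52688. DNAJB1 stood at 24135, 29517 and 13447 normalized counts in DSF and 631025, 659184 and 468761 in DSF+NSM libraries, a rise of 26.2-fold in the HSP40 co-chaperone of HSP70 (log2 difference 4.77 ± 0.26). HSP90AA1, the inducible HSP90, went from 50674, 51963 and 39553 to 908983, 906127 and 629743 (log2 difference 4.09 ± 0.19, adjusted p = 1.37e-07). In the DSF+NSM libraries this single gene took up more normalized counts than ACTB, the gene of cytoplasmic actin, which held 142554, 152634 and 118633 and did not pass the test (log2 difference -0.16, equal sums -0.85, called).

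The rise spanned chaperones of several compartments. SERPINH1, the collagen chaperone HSP47 of the endoplasmic reticulum and the gene of the list with the largest difference among the 25, went from 1608, 1809 and 813 to 56311, 58312 and 32899 normalized counts (log2 difference 5.16 ± 0.31). BAG3, which hands HSP70 clients to autophagy, rose 19.4-fold, and HSPH1, an exchange factor of HSP70, 19.7-fold. HSPE1 and HSPD1, the mitochondrial chaperonin pair, rose 7.32-fold and 3.40-fold. The constitutive HSPA8 and HSP90AB1 rose by less, 5.73-fold and 4.78-fold, with no overlap between the groups. CRYAB, the small chaperone alpha B crystallin, was listed at 0 in all DMSO and NSM libraries and went from 105, 112 and 32.7 to 1218, 984 and 486. HSF1 itself did not pass the test (1116, 1183 and 1076 against 1197, 1177 and 1236, log2 difference 0.10, equal sums -0.59, not called), nor did HSF2 (0.35, equal sums -0.33, not called) and DNAJB4 (0.56, equal sums -0.12, not called).

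Promoters of 3 of these genes are shown because they hold GAANNTTC, the core of the heat shock element that HSF1 binds. The letters were searched on both strands of 300 bases per promoter, from 250 before to 50 after the start, taken from RefSeq (GRCh38.p14), and the match is in capitals. The match begins 105 bases before the start in HSPA1B (chr6:31827488-31827787, plus strand), 180 and 69 bases before it in HSPA6 (chr1:161524290-161524589, plus strand) and 71 bases before it in SERPINH1 (chr11:75562003-75562302, plus strand), each read 5′ to 3′.
HSPA1B: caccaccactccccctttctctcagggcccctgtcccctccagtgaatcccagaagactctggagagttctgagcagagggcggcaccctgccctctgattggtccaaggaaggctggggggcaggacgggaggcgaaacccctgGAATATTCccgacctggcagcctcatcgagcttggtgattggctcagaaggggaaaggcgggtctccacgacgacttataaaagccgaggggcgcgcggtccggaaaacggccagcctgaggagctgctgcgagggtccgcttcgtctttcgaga
HSPA6: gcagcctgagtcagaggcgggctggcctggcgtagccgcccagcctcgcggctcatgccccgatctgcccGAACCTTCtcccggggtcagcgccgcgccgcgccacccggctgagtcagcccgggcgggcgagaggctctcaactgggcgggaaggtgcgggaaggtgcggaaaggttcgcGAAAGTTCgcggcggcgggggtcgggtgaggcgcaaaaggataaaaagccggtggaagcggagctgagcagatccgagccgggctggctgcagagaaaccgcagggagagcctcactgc
SERPINH1: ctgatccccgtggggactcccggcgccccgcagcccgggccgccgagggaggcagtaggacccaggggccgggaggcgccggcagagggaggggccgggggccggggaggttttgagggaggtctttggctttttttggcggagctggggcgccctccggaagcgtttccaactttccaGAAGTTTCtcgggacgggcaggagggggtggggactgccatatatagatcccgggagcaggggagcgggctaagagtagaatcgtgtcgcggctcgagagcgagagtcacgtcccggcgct
HSPA6, the strictly inducible HSP70B′, went from 10639, 12539 and 4433 to 149856, 153117 and 78927 normalized counts (13.8-fold). The core was present in 9 of the 22 risen heat shock genes with a promoter entry (40.9%) and in 2377 of 35116 promoters in all (6.77%). The list was drawn up as HSF1 chaperones, so this surplus is a trait of the list and not a result of these data. The core was not in the windows searched for DNAJB1, HSP90AA1 and HSPH1, which rose as much, and other starts of these genes were not searched. The HSP90AA1 window (chr14:102139700-102139999) lies beyond the annotated span of the gene, which ends at 102139699. The DNAJB1 window (chr19:14529222-14529521) lies inside the annotated span, 14514769-14560391. These windows therefore cannot show that the genes lack the element.

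Genes of protein breakdown rose along with the chaperones, by smaller amounts. Of 32 proteasome subunit genes, 30 rose and 0 fell, with a median of 0.82, and under equal sums 11 rose and 1 fell (median 0.14). PSMC2, an ATPase of the regulatory particle, went from 1919, 1939 and 1919 to 5749, 5622 and 5710.0 (log2 difference 1.56 ± 0.09, adjusted p = 3.70e-07). PSMC1, another ATPase, had a higher difference, 1.91, but shares exon bases with NRDE2 on the other strand. The study describes random-primed cDNA and no step that keeps strand, and does not say whether strand was used in counting. Reads of such shared bases may therefore come from either gene. ADRM1, a ubiquitin receptor of the proteasome, rose by 1.52 on the log2 scale, and PSMB5, the catalytic subunit that bortezomib blocks, by 0.92 (equal sums 0.23, not called). Of 17 genes of ubiquitin and of the p97 unfoldase, 13 rose and 0 fell (median 0.76, under equal sums 3 higher and 3 lower). UBB, a polyubiquitin gene, rose 5.56-fold. VCP, which encodes p97, went from 5897, 6098 and 5479 to 11245, 10854 and 10205 (log2 difference 0.89, equal sums 0.20, not called), with no overlap. Of 34 genes of lysosomes and autophagy 18 rose and 2 fell (median 0.52), but under equal sums 8 were higher and 9 lower (median -0.17). GABARAPL1, an ATG8 family member, led with 5.32-fold, before SQSTM1, the p62 cargo receptor (4.41-fold).

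Metallothionein genes, which took 0.0129% of the sum in DMSO libraries, rose further from their level in DSF libraries. Of 14 listed metallothionein and MTF1 target genes 9 were tested, and 9 rose and 0 fell (median 2.76, under equal sums 6 and 0), although MT1E, at 1.19, 1.70 and 0 against 10.1, 15.2 and 11.9, passed the filter only through its DSF+NSM values. The DSF libraries held 43364, 58169 and 43983 normalized counts of MT2A and the DSF+NSM libraries 238399, 251802 and 208773, a 4.80-fold rise (log2 difference 2.27 ± 0.15, adjusted p = 6.27e-07) in a cysteine-rich protein that binds zinc and copper. MT1X went from 19096, 26719.8 and 20782 to 139820.4, 150076 and 155654, and MT1G from 16.2, 24.9 and 30.5 to 534, 435 and 511. No library of either group overlapped with the other for these genes. The MT1 genes are close copies of each other, so reads may have been divided among them. SLC30A1, the zinc exporter ZnT1, rose 4.01-fold, and MTF1 itself by 0.49 ± 0.11 (equal sums -0.20, not called). The 12 genes of copper import, chaperoning and export moved little, with 2 higher, 2 lower and a median of -0.05 (under equal sums 0 higher and 8 lower).

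The MT2A promoter is shown because it holds many copies of TGCNCNC, a shortened form of the metal response element that MTF1 binds. It covers chr16:56608334-56608633 on the plus strand (RefSeq, GRCh38.p14), 5′ to 3′, with 8 matches on either strand in capitals.
MT2A: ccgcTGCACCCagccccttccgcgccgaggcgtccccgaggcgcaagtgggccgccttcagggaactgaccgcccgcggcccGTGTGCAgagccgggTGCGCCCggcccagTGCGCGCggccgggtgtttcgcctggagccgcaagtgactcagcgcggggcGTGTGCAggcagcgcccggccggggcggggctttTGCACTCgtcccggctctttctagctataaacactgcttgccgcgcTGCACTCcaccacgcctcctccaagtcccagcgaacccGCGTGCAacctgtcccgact
All 6 risen genes of the list with a promoter entry held the motif, but so did 55.9% of the 35116 promoters.

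Among NRF2 targets, 15 of 21 rose and 1 fell, with a median of 0.74 (under equal sums 7 higher and 4 lower). The leading gene was HMOX1, the haem-degrading enzyme haem oxygenase, which is also a target of HSF1. It stood at 9.72, 8.31 and 10.8 normalized counts in DMSO, 18.7, 11.6 and 11.5 in NSM, 12750.0, 16708 and 7614 in DSF and 124719, 133674 and 117085 in DSF+NSM libraries. It did not pass the test for NSM without DSF (0.47) and rose 10.1-fold with it (log2 difference 3.41 ± 0.26, adjusted p = 1.66e-06). The ferritin chains FTH1 and FTL, which store iron, rose 4.78-fold and 2.26-fold (FTL under equal sums 0.50, not called). FTH1 shares 1267 of its 2004 exon bases with BEST1 on the other strand. GCLM, a subunit of the enzyme that starts glutathione synthesis, went from 410.3, 479 and 381 to 1087, 1022 and 1173, and SRXN1, which repairs oxidised peroxiredoxins, from 1393, 1379 and 1002 to 4390.3, 4588 and 4642. NQO1, a quinone reductase often used to read NRF2 activity, moved the other way, from 464, 419 and 452 to 318, 371 and 261 (log2 difference -0.50 ± 0.17, adjusted p = 0.0329), a call lost without any 1 of the DSF libraries, DMSO replicate 2, DSF+NSM replicate 1 or DSF+NSM replicate 3 (-0.55 to -0.37). SLC7A11, the cystine carrier, had a difference of 0.28 ± 0.14 that did not pass the test and turned to -0.41 under equal sums (called).

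Genes of cholesterol synthesis rose nearly throughout. Of 24 genes, 23 rose and 0 fell, with a median of 2.10 (under equal sums 16 rose, median 1.42), and the remaining gene was PMVK. The DSF libraries held 734, 686 and 686 normalized counts of HMGCS1 and the DSF+NSM libraries 21066, 18621 and 15615, a 26.3-fold rise of the enzyme that makes HMG-CoA (log2 difference 4.70 ± 0.25, adjusted p = 2.46e-07). The values did not overlap. Part of the exons of HMGCS1 overlaps a transcript on the other strand. MSMO1, which removes methyl groups from sterols, rose 13.0-fold and INSIG1, which holds back SREBP processing and is itself a target, 5.73-fold. SREBF2, the gene of SREBP2, rose by 0.74 on the log2 scale (equal sums 0.05, not called), and PMVK did not pass the test (441, 396 and 443 against 812, 783 and 384, equal sums -0.13, not called). The genes of fatty acid synthesis were mixed, with 6 of 12 higher, 1 lower and a median of 0.54 (under equal sums 4 higher and 2 lower), and values between 1.76 for ACSS2, which makes acetyl-CoA from acetate, and -0.41 for ACLY, which makes it from citrate. CACCCCAC, a core of the sterol regulatory element, was found in 1 of 17 promoters of risen cholesterol genes (5.88%) and in 2.79% of all promoters, and not in those of HMGCS1 and MSMO1.

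**Figure D3:**
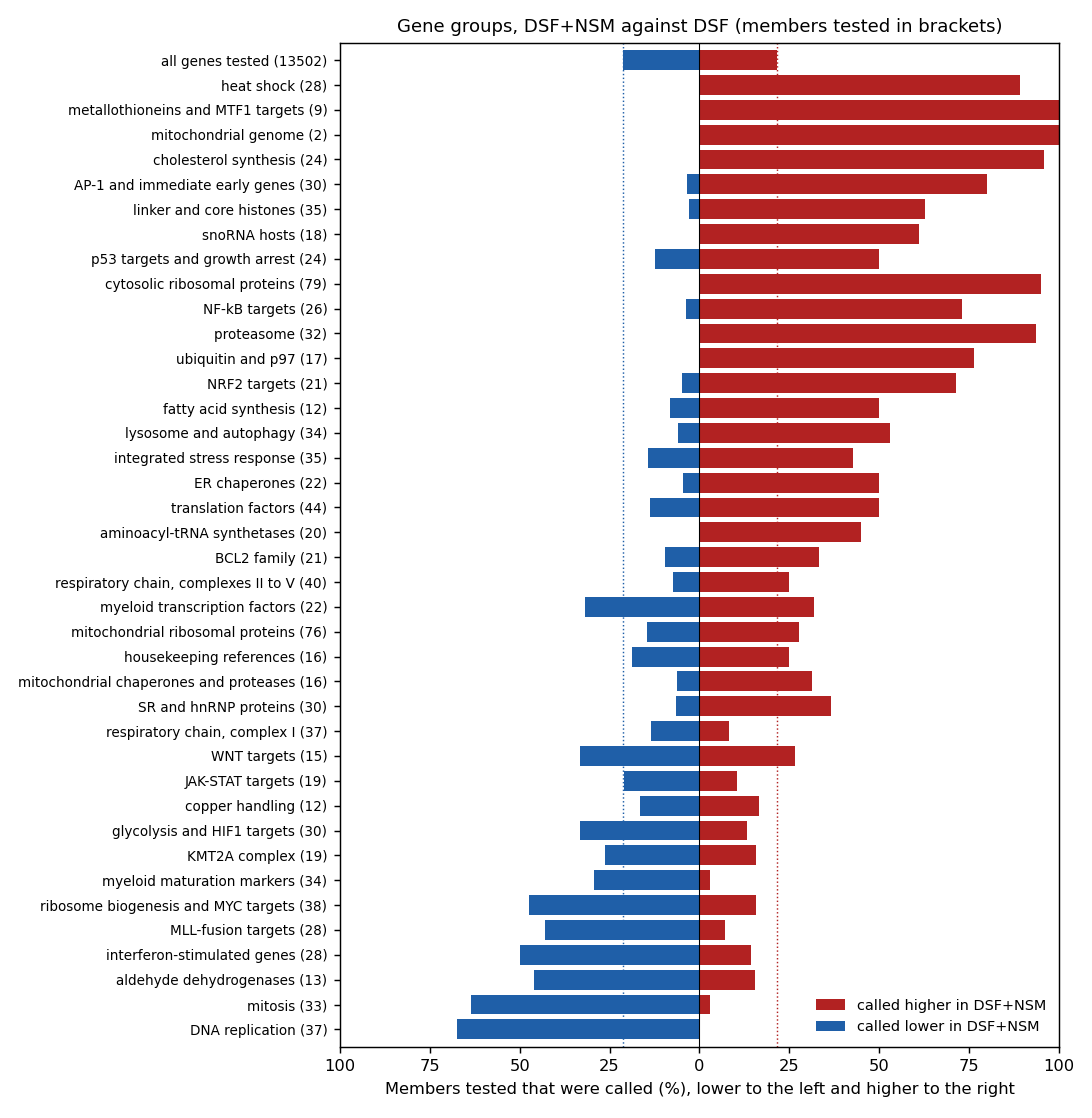
For each gene group, the share (%) of its tested members called higher (bars to the right) or lower (bars to the left) in DSF+NSM than in DSF libraries on the authors' scale, with all genes at the top and the groups below it in the order of their median difference. Dotted lines mark the 21.7% higher and 21.4% lower among all genes, with 25 of 28 heat shock genes to the right and 25 of 37 DNA replication genes to the left.

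The integrated stress response rose in part. Of 35 targets, 15 rose and 5 fell (median 0.50), and under equal sums 7 rose and 12 fell (median -0.18). DDIT3 stood at 1509, 2074 and 1439 normalized counts in DSF and 5778, 6140.5 and 6043 in DSF+NSM libraries, a rise of 3.58-fold in the gene of the factor CHOP (log2 difference 1.86 ± 0.20, adjusted p = 2.04e-05), with no overlap between the groups. PPP1R15A, which directs a phosphatase back to eIF2α, went from 4428, 5252 and 3449.9 to 36939, 38333 and 26650.2, and ATF3 from 347, 407 and 233 to 2839, 2661 and 2627. ATF4 rose by 0.86 ± 0.13 (equal sums 0.18, not called). Some amino acid genes of the same list did not rise. ASNS, the asparagine synthetase, stood at 3009, 3298 and 3406 in DSF and 3488, 3698 and 4876 in DSF+NSM libraries and did not pass the test (0.30, equal sums -0.39, not called), and ALDH18A1, which starts proline synthesis, fell by 1.52 on the log2 scale. CHAC1, a glutathione-degrading ATF4 target, also missed the threshold (0.48 ± 0.27, equal sums -0.20, not called). EIF2S1, the gene of eIF2α, did not pass the test (0.21 ± 0.14), and its difference turned to -0.48 under equal sums (called). Of 22 chaperones and folding factors of the endoplasmic reticulum, 11 rose and 1 fell (median 0.39), but the balance turned under equal sums, with 2 higher and 8 lower (median -0.29). HSPA5 (BiP) went from 17983, 20530.2 and 19633 to 49949, 55600.5 and 70307 and PDIA4, a disulphide isomerase, fell from 2946, 3453 and 3194 to 1704, 1692 and 1902.

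Immediate early genes, which are transcribed within minutes of a stimulus, were higher at 16 h. Of 30 such genes 24 rose and 1 fell (median 2.06, under equal sums 20 and 4). FOSB stood at 142, 126 and 77.1 normalized counts in DSF and 1982, 2159 and 974 in DSF+NSM libraries (log2 difference 3.84 ± 0.32, adjusted p = 3.15e-06). JUN, its partner in the AP-1 factor, went from 1471, 1568 and 938 to 11805, 11875 and 6948, and FOS from 387, 442 and 273 to 3235, 3264 and 1794. For these 3 genes, DSF+NSM replicate 3 was the lowest of its group and still above every DSF library. The member that fell was DUSP6, a phosphatase of ERK (1269, 1217 and 1197 against 726, 792 and 872), a call lost without any 1 of the DSF libraries, DSF+NSM replicate 1 or DSF+NSM replicate 2 (-0.64 to -0.56). Of 26 NF-kB targets, 19 rose and 1 fell (median 0.86, under equal sums 11 higher and 3 lower). IL8, the neutrophil chemokine now named CXCL8, rose 6.16-fold and CCL3 8.42-fold, whereas CCL2, the monocyte chemokine, fell from 1837, 1681 and 1341 to 347, 352 and 362 (log2 difference -2.18 ± 0.20, adjusted p = 5.98e-06). CCL3 shares 1115 of its 1494 exon bases with CCL3-AS1 on the other strand.

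Of 24 p53 targets and genes of growth arrest, 12 rose and 3 fell (median 0.98, under equal sums 8 higher and 6 lower). GADD45B, a stress sensor that binds cell cycle kinases, went from 1833, 2318 and 1399 to 39120.4, 44484 and 19459.8 normalized counts, 18.6-fold higher. CDKN1A, the inhibitor p21, went from 663, 654 and 419.8 to 1495, 1549 and 1192 (log2 difference 1.31 ± 0.22), while CDKN1B, the inhibitor p27, fell from 706, 759 and 719.6 to 333, 324 and 495, a call lost without DSF+NSM replicate 1 (-0.86) or 2 (-0.84). Of 21 BCL2 family and related genes 7 rose and 2 fell (median 0.31), but under equal sums 3 were higher and 6 lower (median -0.37). The risers included genes that promote and genes that oppose apoptosis: PMAIP1 (NOXA) rose 6.08-fold and BBC3 (PUMA) 2.87-fold, while the survival gene MCL1 went from 3523, 3348 and 3155 to 8673, 7761 and 9511. BCL2 was lower, 392, 406 and 396 against 334, 249 and 249.6 (log2 difference -0.53 ± 0.16, adjusted p = 0.0161), a call lost without DSF replicate 2 (-0.52), DSF+NSM replicate 2 (-0.46) or DSF+NSM replicate 3 (-0.46).

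Ribosomal protein genes rose by modest amounts. Of 79 cytosolic ribosomal protein genes 75 rose and 0 fell, with differences from 0.14 to 1.16 and a median of 0.88, but under equal sums the median was 0.19, with 17 higher and 1 lower. RPL19, for example, went from 36363, 40043 and 39121 to 67773, 69143 and 54858 (equal sums 0.04, not called). Hosts of small nucleolar RNAs, whose spliced transcripts are cleared when they are translated, had 11 of 18 members higher and 0 lower (under equal sums 9 higher and 4 lower), SNHG12 leading with 4.73-fold. Of 44 translation factors 22 rose and 6 fell (median 0.36), but the balance turned under equal sums, with 4 higher and 19 lower (median -0.33). EIF1, which selects the start codon, went from 14312, 16434 and 14797 to 37998, 39337 and 40380.4 and EIF4G1, the scaffold that recruits the ribosome to the cap, from 9574, 9005 and 9774 down to 3192, 2919 and 2977. Of 20 aminoacyl-tRNA synthetases 9 rose and 0 fell (median 0.32), and this too turned under equal sums, with 1 higher and 10 lower (median -0.36). Genes of ribosome biogenesis and MYC targets went the other way, with 6 of 38 higher and 18 lower (median -0.39, under equal sums 0 higher and 32 lower). UBTF, the factor that opens rRNA genes to RNA polymerase I, fell from 2248, 2277 and 2276 to 612, 564 and 518 and POLR1A, the largest subunit of that polymerase, from 716, 652 and 680.1 to 199, 165 and 131.

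Transcripts of rRNA, MALAT1 and histone genes were also higher. RNA28S5, the 28S rRNA, went from 377047, 411208 and 456397 to 1478528, 1184306 and 1324755 (log2 difference 1.68 ± 0.48, adjusted p = 0.014, equal sums 0.99, not called), and RNR2, the large mitochondrial rRNA, from 119569, 112362 and 128493 to 726655, 682064 and 817784 (log2 difference 2.63). MALAT1, a long nuclear RNA, rose 5.31-fold, but shares 8121 of its 10434 exon bases with TALAM1 on the other strand. Of 35 histone genes 22 rose and 1 fell (median 1.85, under equal sums 18 higher and 4 lower). HIST2H2BE went from 72.9, 33.8 and 53.4 to 588, 625 and 701 and HIST1H2BJ from 55.5, 53.7 and 51.2 to 628, 642 and 582, whereas H2AFX, the variant H2A.X, fell from 2843, 2847 and 2976 to 1619, 1796 and 1108, a call lost without any 1 of the DSF libraries or DSF+NSM replicate 3 (-0.98 to -0.76). Histone genes are a family of close copies, so reads may be divided among them.

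MLL-fusion targets were lower on balance, with clear exceptions. Of 28 tested targets, 12 fell and 2 rose, with a median of -0.46 (under equal sums 19 fell and 0 rose, median -1.15), against 21.4% lower and a median of 0.01 among all genes. Leaving out single libraries gave 8 to 12 lower genes, with 8 without DSF+NSM replicate 1, except that 18 were lower without NSM replicate 3. HOXA10 stood at 687, 759 and 807 normalized counts in DSF and 264, 215 and 335 in DSF+NSM libraries, a 2.77-fold lower mean (log2 difference -1.49 ± 0.16, adjusted p = 1.97e-05). HOXA7 stood at 179, 165 and 204 in DSF and 99.8, 107 and 84.4 in DSF+NSM libraries (log2 difference -0.91 ± 0.17, adjusted p = 9.29e-04). Neither gene overlapped between the groups, and both share exon bases with antisense transcripts of the cluster. GFI1, a transcriptional repressor of blood cell development, fell from 2639, 2663 and 2776 to 1160.2, 1026 and 1024 (log2 difference -1.33 ± 0.13, adjusted p = 1.22e-05). HOXA9, the target most tied to MLL leukaemia, did not pass the test: its counts of 650.0, 717 and 622 and 469, 418 and 648 overlapped (log2 difference -0.40 ± 0.28, equal sums -1.08, called), but was called without NSM replicate 3 and with library weights. MEIS1, the cofactor of HOXA9, fell from 906, 972 and 1021 to 602, 625 and 866 (log2 difference -0.49 ± 0.17, adjusted p = 0.0328), a call lost when any 1 of the DSF libraries, DSF+NSM replicate 1 or DSF+NSM replicate 2 was left out (differences of -0.53 to -0.39). PBX3 and CDK6, also direct targets of MLL fusions, did not pass the test (0.27, equal sums -0.42, not called, and -0.04, equal sums -0.72, called), and SENP6, which removes the small protein SUMO from its targets, was a member that rose (242, 234 and 247 against 466, 389 and 675, equal sums 0.36, not called).

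The gene of the list with the largest fall was MYC, the growth-promoting transcription factor. It stood at 6648, 7067 and 7246 in DMSO, 4824, 4562 and 5327 in DSF, 2545, 2775 and 2294 in NSM and 376, 261 and 588 in DSF+NSM libraries. The mean fell 12-fold from DSF to DSF+NSM (log2 difference -3.66 ± 0.22, adjusted p = 3.74e-07), and the DSF+NSM libraries were below those of every other group. MYB, a further transcription factor of immature blood cells, fell from 3264, 3139.9 and 2864 to 1873, 1949 and 2172. KMT2A, whose 5′ part drives the fusion gene, stood at 1608, 1622 and 1567 and 1747, 1727 and 2059, did not pass the test (0.20 ± 0.13, equal sums -0.48, called) and, like MLLT4, the AF6 gene (0.63 ± 0.13, called higher, equal sums -0.05, not called), is counted from the normal and the rearranged allele together. Of 19 genes of the KMT2A complex and its partners 3 rose and 5 fell (under equal sums 0 higher and 14 lower). MEN1, the menin that links MLL to chromatin, fell from 1037, 905 and 1064 to 398, 362 and 379 (log2 difference -1.39 ± 0.15, adjusted p = 1.65e-05), and WDR5, a core subunit, from 1306, 1355 and 1569 to 811, 798 and 670.0.

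**Figure D4:**
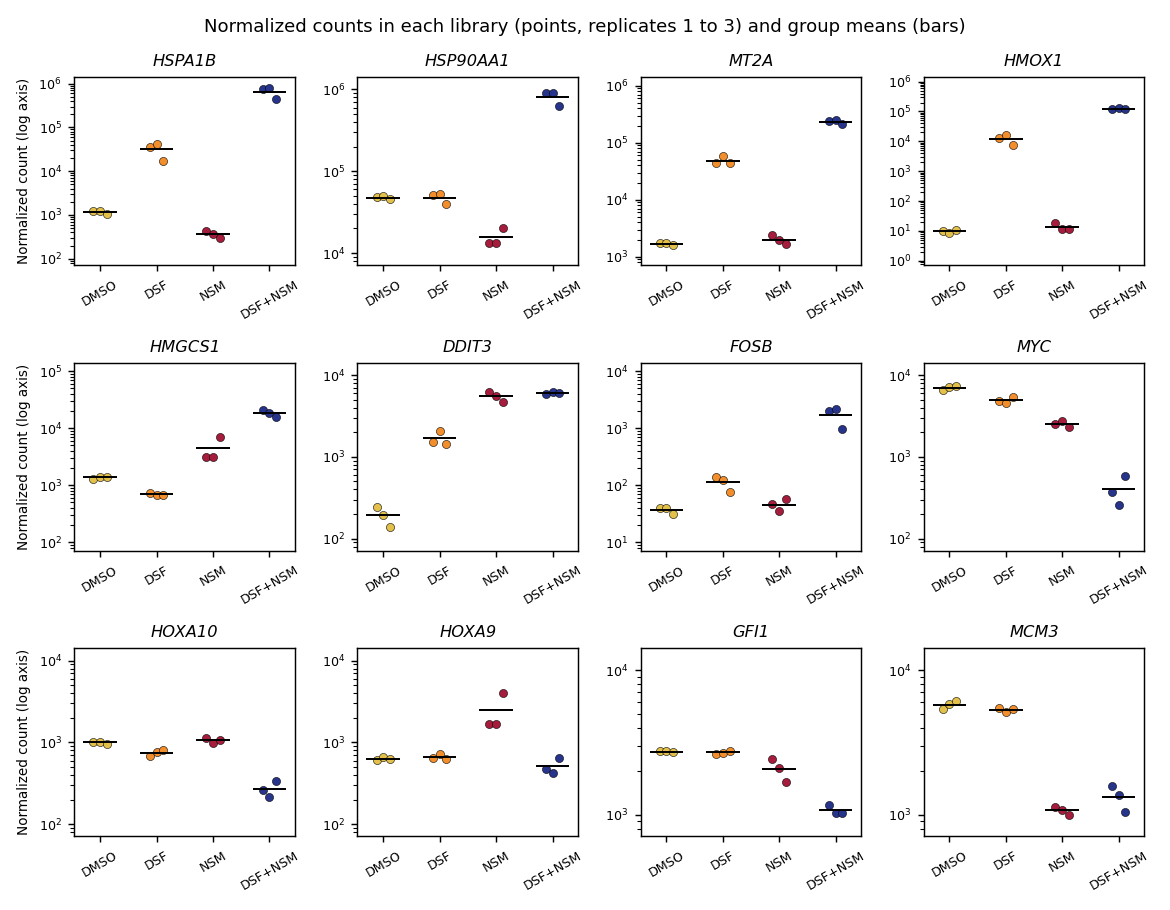
Normalized counts (log axis) of 12 genes in the 4 groups, with a point per library and a bar at the group mean. HSPA1B, HMOX1 and FOSB are highest and MYC, HOXA10 and GFI1 lowest in the DSF+NSM libraries, while HOXA9 overlaps between DSF and DSF+NSM and MCM3 is low wherever NSM was given.

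Transcription factors of the myeloid lineage gave no single direction, while maturation markers fell more often than they rose. Of 22 transcription factors of the myeloid lineage 7 rose and 7 fell (under equal sums 4 higher and 11 lower), among them EGR1, a factor of macrophage fate (3.07-fold higher), and IKZF1, the lymphoid and myeloid factor Ikaros (2025, 1899 and 2023 against 716, 608 and 793). Of 34 maturation markers 10 fell and 1 rose (median -0.21, under equal sums 0 higher and 28 lower). ITGAM, the integrin CD11b of mature myeloid cells, fell from 1673, 1702 and 1272 to 707, 889 and 932 (log2 difference -0.88 ± 0.16, adjusted p = 7.45e-04). CD14, the monocyte receptor for lipopolysaccharide, overlapped (431, 415 and 321 against 272, 359.6 and 377) and did not pass the test (-0.21, equal sums -0.90, called). MPO, the granule enzyme myeloperoxidase, fell from 29729.9, 29316 and 36629 to 22034, 22043 and 19671 and LYZ, lysozyme, from 625, 692 and 719.6 to 485, 479 and 424. S100A9, a calcium-binding protein of maturing myeloid cells, lost 1.87-fold, and CTSG, the granule protease cathepsin G, was the marker that rose (4834, 4975 and 5855 against 11140.3, 10970.0 and 7896, equal sums 0.24, not called). In bulk RNA, fewer cells of a kind and less RNA per cell cannot be told apart.

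The cell cycle programme was lower. Of 37 genes of DNA replication, 25 fell and 0 rose (median -0.78, under equal sums 0 higher and 35 lower), and of 33 genes of mitosis 21 fell and 1 rose (median -0.71, under equal sums 1 higher and 28 lower). MCM3, a subunit of the replicative helicase, went from 5447, 5088 and 5421 to 1590.3, 1369 and 1044 (log2 difference -2.01 ± 0.14, adjusted p = 1.00e-06). KIF20A, a kinesin of cell division, fell from 1217, 1161 and 1079 to 255, 181 and 110.4 (log2 difference -2.73 ± 0.24, adjusted p = 4.27e-06), and CENPA, the histone of the centromere, 4.63-fold. E2F8, a repressor of late S phase, fell 8.15-fold. The mitotic gene that rose was UBE2C, from 17.1, 11.9 and 15.7 to 80.2, 47.4 and 42.3, at low counts.

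Other groups moved less evenly. Of 28 interferon-stimulated genes 14 fell and 4 rose (median -0.54, under equal sums 0 higher and 19 lower). OAS2, an activator of RNase L, fell from 352, 399 and 378 to 67.1, 47.0 and 74.5, while ISG15, a ubiquitin-like protein, rose from 355, 399 and 309 to 1159, 1025 and 773 (equal sums 0.78, not called), a call also lost without DSF replicate 3 (1.37) or DSF+NSM replicate 1 (1.33). Of 13 aldehyde dehydrogenase genes, the family that DSF inhibits, 6 fell and 2 rose (under equal sums 2 higher and 10 lower). ALDH1B1, a mitochondrial member, fell 8.91-fold, from 462, 453 and 545 to 64.8, 52.5 and 46.6, and ALDH2, the enzyme of alcohol breakdown, rose from 37.4, 20.5 and 26.7 to 75.5, 78.7 and 65.3. Of 30 genes of glycolysis and HIF1 targets 4 rose and 10 fell (under equal sums 2 higher and 20 lower), with LDHA, which makes lactate, going from 18006, 15595 and 18216 to 8745, 8601 and 7806 and ADM, the peptide adrenomedullin, from 103, 103 and 62.2 to 511, 534 and 319.7.

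Nuclear genes of the respiratory chain, the process that NSM is known to uncouple, stayed close to the median of all genes. Of 37 complex I subunits 3 rose and 5 fell (median 0.03), but under equal sums 0 were higher and 25 lower (median -0.65). Of 40 subunits of complexes II to V 10 rose and 3 fell (median 0.23), but under equal sums 0 were higher and 19 lower (median -0.45). The median of all genes was itself -0.68 on that scale. Mitochondrial ribosomal proteins had 21 of 76 members higher and 11 lower, but under equal sums 3 were higher and 42 lower. Mitochondrial chaperones and proteases had 5 of 16 higher and 1 lower, but under equal sums 2 were higher and 10 lower. JAK-STAT targets had 2 of 19 members higher and 4 lower (under equal sums 1 higher and 12 lower), and WNT targets, a pathway NSM is known to inhibit, 4 of 15 higher and 5 lower (under equal sums 1 higher and 8 lower). Splicing factors of the SR and hnRNP families had 11 of 30 members higher and 2 lower (median 0.07), but under equal sums 3 were higher and 17 lower (median -0.61). CLK1, a kinase of SR proteins, rose 6.09-fold. Of 16 genes often taken as references, 4 rose and 3 fell (under equal sums 1 higher and 10 lower). GAPDH did not pass the test (0.25 ± 0.17, equal sums -0.43, called).

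Most of the 12 largest rises belonged to genes with few counts in DSF libraries. CRYBA4, a crystallin of the eye lens, went from 0, 4.98 and 2.18 normalized counts to 308, 263 and 107, the largest rise when genes averaging under 50 counts or overlapping between the groups are set aside (log2 difference 6.27 ± 0.66). COL2A1, the collagen of cartilage, went from 6.96, 2.00 and 1.09 to 372, 263 and 189 and PLVAP, a protein of endothelial pores, from 6.94, 0.995 and 0 to 168, 159 and 66.6. In the DSF libraries these genes rest on few reads, so the size of the difference depends on the pseudocount of 1, whereas the DSF+NSM values are well above the step. THBS1, the secreted adhesion protein thrombospondin, rose from 40.5, 31.8 and 5.45 to 847, 843 and 419.6, MT1H from 4.63, 13.9 and 7.63 to 397, 406 and 495, and MAFA, a transcription factor of insulin-producing cells, from 3.47, 7.96 and 4.36 to 269.6, 279.5 and 118. DACT3, an inhibitor of WNT signalling, went from 11.0, 4.73 and 1.16 to 186, 208 and 141, SLC5A5, the iodide carrier of the thyroid, from 2.37, 3.06 and 1.12 to 144, 171 and 29.6, and FLJ25758 from 10.4, 22.9 and 2.18 to 453, 408 and 211. HYPK shares most of its exon bases with SERF2 and TGIF2-C20orf24 is a read-through transcript, so their rises (5.97 and 5.34) depend on how shared reads were assigned. SERPINH1, described above, completed the 12 largest. CRYBA4, COL2A1, PLVAP, MAFA and SLC5A5 were under the filter's minimum of 10 in every DSF library, so only other groups could carry them through it. For such genes the filter favours rises. Of 140 genes named, 134 passed the filter when any 1 DSF+NSM library was left out, and the rest needed that library to pass.

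The 12 largest falls were seen in genes well above the step in DSF libraries. In DSF+NSM libraries, where the step was 1.54 to 2.22, some of them reached low counts, among them SERPINB2, ARG1 and TMEM177. For such genes the DSF+NSM values rest on few reads, and the size of the fall depends in part on the pseudocount of 1. SERPINB2, the plasminogen activator inhibitor of monocytes, went from 198, 184 and 133 to 19.3, 9.27 and 6.66, ARG1, the arginase of the urea cycle, from 141, 137 and 188 to 21.0, 23.2 and 8.88, and TMEM177, a mitochondrial protein of cytochrome oxidase assembly, from 156, 179.7 and 193 to 16.3, 11.2 and 11.5. PLCH1, a phospholipase C, fell 10.4-fold, C3orf80 9.77-fold, SLITRK5, a neuronal membrane protein, 8.78-fold, and LOC102723996 15.5-fold. MYC, E2F8 and ALDH1B1 were also among them. The values of SGK3 (200.4, 213 and 327 against 56.9, 0 and 19.1) and SCHIP1 (105, 92.8 and 96.4 against 0, 26.2 and 26.9) are uncertain, since both share exons with a read-through gene of the same strand and each was listed at 0 in 1 DSF+NSM library.

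In GENCODE 44 (GRCh38), the genes that carry these results lie as follows, from the first to the last annotated base: HSPA1B at chr6:31827738-31830254 (plus strand), DNAJB1 at chr19:14514769-14560391 (minus strand), HSP90AA1 at chr14:102080742-102139699 (minus strand), SERPINH1 at chr11:75562056-75572783 (plus strand), MT2A at chr16:56608584-56609497 (plus strand), HMOX1 at chr22:35380361-35394214 (plus strand), HMGCS1 at chr5:43287470-43313512 (minus strand), FOSB at chr19:45467995-45475179 (plus strand), HOXA10 at chr7:27170605-27180261 (minus strand) and GFI1 at chr1:92473043-92486925 (minus strand). All are protein coding.

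The change that NSM brought was then compared between the cells given DSF and Cu and the cells not given DSF, DSF+NSM minus DSF against NSM minus DMSO. The difference between these changes was called for 3527 genes (26.1%), positive for 1632 (12.1%) and negative for 1895 (14.0%), and for 6175 genes without NSM replicate 3, which stood apart from its group. Under equal sums it was called for 4779 genes, and its median over all genes moved from 0.01 to -0.40. The values and list counts for this difference are on the authors' scale, and their direction depends in part on that scaling. For the heat shock list, NSM without DSF gave a median of -0.36 and with DSF 2.83, and the difference was called positive for 24 of 28 genes and negative for 0. HSPA1B fell with NSM in cells without DSF, from 1219, 1201 and 1040.1 to 428, 362 and 303, and rose with NSM in cells with it, as given above, a difference between the changes of 6.11 ± 0.43 (adjusted p = 7.41e-06). HSP90AA1 likewise fell from 47731, 49362 and 45766 to 13076, 13086 and 20462 without DSF. The proteasome list went from a median of -0.35 to 0.82 (30 of 32 called positive). The cholesterol list had a median change of 0.68 without and 2.10 with DSF, and the difference was called positive for 21 of 24 genes.

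Among other groups, the change with NSM in cells that already had DSF and Cu was smaller, larger or in the other direction. For the integrated stress response, the median change was 1.63 without and 0.50 with DSF, and the difference was called negative for 24 of 35 genes and positive for 0. DDIT3 rose with NSM from 244, 193 and 139 in DMSO to 6192, 5479 and 4723, and the DSF+NSM libraries overlapped with these NSM libraries from a higher start. ASNS rose from 2219.6, 2084 and 2017 to 8940.0, 9845 and 7969 without DSF and did not pass the test with it (difference between the changes -1.78 ± 0.19, adjusted p = 9.73e-05). For DNA replication, the change was -1.69 without and -0.78 with DSF, with 23 of 37 called positive, and for mitosis -0.16 and -0.71, with 16 of 33 called negative. MLL-fusion targets had a median change of 0.28 with NSM without DSF and -0.46 with it, and 14 of 28 were called negative and 0 positive for the difference. HOXA9 rose with NSM without DSF, from 612, 659 and 629 to 1673, 1682 and 4039, and the difference between the changes was -2.22 ± 0.40 (adjusted p = 0.00184). For HOXA7 that difference did not pass the test (-0.63 ± 0.24, adjusted p = 0.0667).

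**Figure D5:**
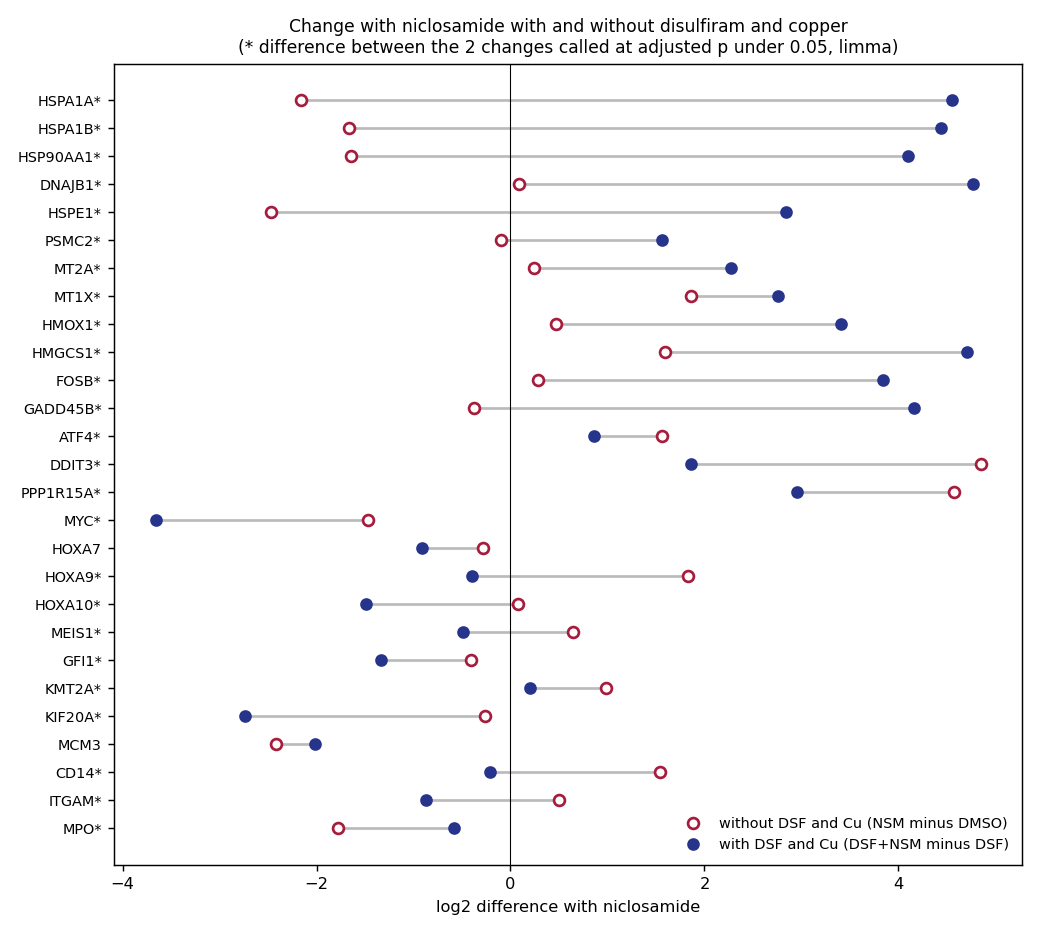
For 27 genes, the log2 difference with NSM in cells not given DSF (open circles, NSM minus DMSO) and in cells given DSF and Cu (filled circles, DSF+NSM minus DSF). A line joins the 2 circles, and a * follows the gene's name where the difference between the changes was called. The drawn labels read without DSF and Cu, but whether the DMSO and NSM cells received Cu is not given. HSPA1A goes from -2.16 to 4.55 and DDIT3 from 4.85 to 1.86.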

How the data were processed

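RNA of SHI-1 cells was measured in 12 libraries, 3 for each of DMSO, DSF, NSM and DSF+NSM, grouped by the sample labels. The authors deposited per library a signal of normalized counts per gene, whose headers name 24 libraries as the basis of the normalization. The study's methods name poly(A) selection, STAR, Salmon and DESeq2, whereas the submitters' processing notes list bcl2fastq 2.19, Trimmomatic, Bowtie2, Picard, featureCounts and DESeq2, with hg38. Between 32.2% and 32.9% of the nonzero values per library were whole multiples of its step (within 0.01 steps), so reads were not recovered and a count model was not used.

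Values were taken as log2(value + 1), genes with at least 10 in at least 3 of 12 libraries were kept, and limma 3.58.1 (R 4.3.3) was fitted to the 4 groups with trended, robust moderation of the variance. It gave DSF+NSM minus DSF and its difference from NSM minus DMSO, with p-values adjusted by Benjamini and Hochberg over all genes tested and a threshold of 0.05. Errors are SE unless SD is named. Spearman correlations between libraries of a group were 0.993 to 0.995 for DSF, 0.980 to 0.991 for DSF+NSM and 0.939 to 0.994 for NSM, and no libraries were identical.

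The comparison, the gene lists (from general knowledge) and the rule for named genes were chosen with earlier results of these data known. Named are the 12 largest rises and falls (mean of at least 50, no overlap), the genes with the largest change in mean (8 rises, 3 falls), up to 3 called genes per list and direction (mean of at least 50), a set of genes given by name, and the 3 largest positive and negative differences between the changes. A few list members outside the rule were named after their values were seen. Alternatives were other scalings, pseudocounts and filters, only the 6 libraries, a replicate block, library weights and leaving out each library. Positions came from GENCODE 44 (129 of 140 genes named in the text matched), promoters from RefSeq. HMOX1 had no promoter entry in the table used. A few genes covered by the rule are not reported here.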

Additional observations from a re-analysis of the deposited data

Results flagged for a closer look

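The change that NSM brought was not the same in cells given DSF and Cu as in the others for 3527 genes, by limma's test of the difference between the changes at an adjusted p under 0.05, and for the genes given here as log2 differences between the changes. The 3 largest positive values were COL2A1 (7.96), TGIF2-C20orf24 (7.57) and THBS1 (6.92). COL2A1 was under the filter's minimum of 10 in every DSF library, so its value depends on the pseudocount and its DSF values did not help it pass. The 3 largest negative values were COMMD3-BMI1 (-7.84), SGK3 (-4.28) and C5AR1 (-3.94). COMMD3-BMI1, a read-through gene, was listed at 0 in all DSF+NSM libraries and at 35.3, 129.8 and 1174 in NSM libraries, so its value depends on the pseudocount and on NSM replicate 3. C5AR1, the receptor of complement C5a, went from 22.6, 17.8 and 20.2 in DMSO to 565, 554 and 674 in NSM and from 387, 406 and 275 in DSF to 530.2, 612 and 829.6 in DSF+NSM libraries.

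Of the genes that the rule gives by name, the difference was positive for HSPA1A (6.71), HSPA1B (6.11), HMOX1 (2.94), MT2A (2.03), MT1X (0.89), HMGCS1 (3.11), EIF2S1 (0.68) and MPO (1.20). It was negative for ATF4 (-0.70), DDIT3 (-3.00), MYC (-2.19), HOXA9 (-2.22), HOXA10 (-1.57), MEIS1 (-1.13), GFI1 (-0.92), KMT2A (-0.78), CD14 (-1.75) and ITGAM (-1.37). These values are on the authors' scale, where the median of this difference over all genes was 0.01, against -0.40 under equal sums. With groups of 3 libraries, no test for a single outlying library was made.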

How the results depend on the processing

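The scaling moved the balance of higher and lower calls most, and library weights the total number of calls. With equal sums, 976 genes were called higher, 7277 lower and 5040 with a difference over 1, and without rRNA in those sums 1116, 6661 and 4604. Of 140 genes named, the difference changed sign under equal sums for ASNS (-0.39), CHAC1 (-0.20), DNAJB4 (-0.12), EIF2S1 (-0.48), GAPDH (-0.43), HSF1 (-0.59), HSF2 (-0.33), KMT2A (-0.48), MLLT4 (-0.053), MTF1 (-0.20), PBX3 (-0.42), PMVK (-0.13), SLC7A11 (-0.41), and without rRNA for ASNS (-0.30), CHAC1 (-0.11), DNAJB4 (-0.028), EIF2S1 (-0.39), GAPDH (-0.34), HSF1 (-0.50), HSF2 (-0.24), KMT2A (-0.39), MTF1 (-0.11), PBX3 (-0.33), PMVK (-0.043), SLC7A11 (-0.32). With library weights 9120 genes were called, 4548 higher and 4572 lower, and 8933 for the difference between the changes. Leaving out single libraries gave 4656 to 8108 genes called, 2287 to 4038 higher, 2262 to 4070 lower, 2498 to 2944 with a difference over 1, and 2569 to 6175 for the difference between the changes, the highest without NSM replicate 3. CDK6 ranged from -0.13 to 0.072 when single libraries were left out, positive without DSF+NSM replicate 2, and was not called. With only the 6 libraries 7348 genes were called, but not SGK3 and SCHIP1. Without NSM replicate 3, 10 more of the genes named were called. Median of ratios, a trimmed mean of M values, pseudocounts of 0.1 and 10 and both other filters (no filter, or at least 10 in every library, which 114 of the genes named passed) changed the sign of no named gene, and of these the median of ratios ended the call of MEIS1 and a pseudocount of 0.1 that of MT1E.

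Deviations of same-numbered DSF and DSF+NSM libraries from their group means had correlations of -0.06, 0.06 and 0.03. Those of same-numbered NSM and DSF+NSM libraries were 0.06, 0.12 and 0.28, but NSM replicate 1 and DSF+NSM replicate 2 also gave 0.24. Whether a number marks the same experiment is not given in the sources used here, and these values cannot settle it. With a replicate block 5978 genes were called, and no call of a gene named changed. The cause of these changes was not tested, other than that both equal-sum scalings set all libraries to 1 total. Depth limits the genes near the step of 1.54 to 2.22 normalized counts in DSF+NSM libraries.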
